A study of Mus musculus with 24 samples.

Results

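The regions described here are the ATAC-seq peaks in and around 10 genes of the NF-κB system. These are the 5 subunit genes Nfkb1, Nfkb2, Rel, Rela and Relb and the 5 inhibitor genes Nfkbia, Nfkbie, Nfkbiz, Bcl3 and Tnfaip3. A consensus peak was a member if it overlapped one of these genes or the 20 kb on either side of it (GENCODE vM21 gene models, GRCm38/mm10), and it was given to the nearest of the 10. The rule took 144 of 184158 consensus peaks, of which 82 belonged to subunit genes and 62 to inhibitor genes. Of these, 141 passed the filter on low counts, as did 174193 peaks in all, and the peaks that did not were 1 each of Nfkb2, Nfkbia and Nfkbie. Nfkb1, the longest of the genes, had 43 peaks, Rel and Nfkbiz 15 each, Tnfaip3 14, Nfkbia 12, Bcl3 11, Nfkbie 10, Rela 9, Relb 8 and Nfkb2 7. Position does not show which gene a peak acts on: 31 member peaks lay closest to the transcription start site (TSS) of another protein-coding gene, 26 lay inside another such gene and 6 covered its TSS.

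ATAC-seq uses a transposase that inserts sequencing adapters where DNA is open, so the number of fragments in a peak measures chromatin accessibility. The 24 libraries came from bone marrow-derived macrophages (BMDMs), cells that the study grew with TGF-β to resemble alveolar macrophages of the lung. They formed 4 groups of 6, since both WT and AhR-KO cells were either left unstimulated or given LPS. WT marrow came from C57/B6/J mice and AhR-KO marrow from B6.129-Ahr tm1Bra/J mice, in which the aryl hydrocarbon receptor (AhR) gene is disrupted in every cell, and the study's methods give 7 to 14 weeks of age and both sexes. All cultures received GM-CSF at 10 ng/ml, TGF-β at 2 ng/ml and serum at 10%. LPS, the bacterial lipopolysaccharide, was added on day 6 at 97 EU/ml for 24 h, and the calcium ionophore A23187 (5 µM, 10 min) followed, in text that the labels attach to every library, unstimulated ones included. The study's figure legend for these data gives 6 animals per group from 1 experiment. Whether the unstimulated and LPS cultures of a genotype shared animals is not given in the sources used here.

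NF-κB is a family of dimeric transcription factors. Rela, Rel and Relb carry domains that activate transcription, whereas Nfkb1 and Nfkb2 encode precursors that are processed into shorter DNA-binding partners. In resting macrophages the dimers are held in the cytoplasm by IκB proteins, and LPS leads to destruction of the IκBs and to entry of the dimers into the nucleus. Nfkbia and Nfkbie encode such cytoplasmic inhibitors, Nfkbiz and Bcl3 encode nuclear IκB-like proteins that can also assist transcription, and Tnfaip3 encodes an enzyme that edits ubiquitin chains upstream of NF-κB. Several of these genes are known to be switched on by NF-κB itself, which makes the system a feedback loop.

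The sequences below are examples from member peaks described in the results. They are from the GRCm38 genome and are all on the minus strand, the strand of the gene named, written 5′ to 3′. First are windows in 3 promoter peaks and in LPS-induced peaks that hold the κB letters (GGG, any 2 bases, then TTTCC, on either strand), a form of the sequence bound by NF-κB, with the match in capitals. The match lay 20 bases upstream of the Nfkbia TSS, 88 bases upstream of that of Relb and 502 bases upstream of that of Nfkbiz. The promoter peaks of Nfkbia and Relb changed less than 1.5-fold in every comparison. Those of Nfkb1, Nfkb2 and Bcl3 also hold the κB letters and are not printed.
Nfkbia promoter, chr12:55492648-55492757: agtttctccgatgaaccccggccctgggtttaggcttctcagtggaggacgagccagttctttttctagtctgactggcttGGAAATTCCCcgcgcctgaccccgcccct
Relb promoter, chr7:19629476-19629585: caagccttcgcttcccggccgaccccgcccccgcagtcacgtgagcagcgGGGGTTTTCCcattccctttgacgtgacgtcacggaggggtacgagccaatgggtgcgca
Nfkbiz promoter, chr16:55839351-55839460: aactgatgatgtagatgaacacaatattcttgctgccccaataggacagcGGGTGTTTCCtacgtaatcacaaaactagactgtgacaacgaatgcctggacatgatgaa
Relb 6.0 kb upstream, first match, chr7:19635078-19635187: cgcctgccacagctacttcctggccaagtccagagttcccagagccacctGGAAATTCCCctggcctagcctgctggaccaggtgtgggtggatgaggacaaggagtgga
Relb 6.0 kb upstream, second match, chr7:19635519-19635628: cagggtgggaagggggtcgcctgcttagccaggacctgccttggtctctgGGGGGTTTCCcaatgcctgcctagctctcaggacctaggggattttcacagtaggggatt
Nfkb1 intron, chr3:135640305-135640414: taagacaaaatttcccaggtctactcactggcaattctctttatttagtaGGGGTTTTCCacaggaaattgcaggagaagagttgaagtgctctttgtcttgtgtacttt

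Next are windows in 2 peaks that hold the AP-1 letters TGANTCA, again in capitals, 1 upstream of Tnfaip3, where the LPS-induced change was the largest among the member peaks in both genotypes, and 1 upstream of Nfkb1, which differed between genotypes in both treatments.
Tnfaip3 11.4 kb upstream, chr10:19026852-19026961: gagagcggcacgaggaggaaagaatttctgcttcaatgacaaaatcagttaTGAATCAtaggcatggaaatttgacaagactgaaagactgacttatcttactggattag
Nfkb1 2.9 kb upstream, chr3:135694646-135694755: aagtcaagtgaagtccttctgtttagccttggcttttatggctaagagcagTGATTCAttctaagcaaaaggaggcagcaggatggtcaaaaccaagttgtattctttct

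The last pair are the peak upstream of Relb with the lowest AhR-KO value relative to WT in unstimulated cells and the Nfkb1 intron peak with the highest AhR-KO value relative to WT after LPS. The Relb window holds 3 copies of the AhR core GCGTG, which reads CACGC (capitals) on this strand, in a tandem repeat. The Nfkb1 window holds none of the motifs searched.
Relb 10.5 kb upstream, chr7:19640233-19640432: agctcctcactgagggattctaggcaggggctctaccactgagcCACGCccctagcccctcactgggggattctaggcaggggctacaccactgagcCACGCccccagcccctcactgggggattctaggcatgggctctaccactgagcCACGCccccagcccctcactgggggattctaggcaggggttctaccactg
Nfkb1 intron, chr3:135613123-135613272: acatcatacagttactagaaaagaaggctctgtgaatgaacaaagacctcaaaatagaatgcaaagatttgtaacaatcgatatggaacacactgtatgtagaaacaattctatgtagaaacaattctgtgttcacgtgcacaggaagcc

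Over whole peaks, the κB letters were found in 19 of 141 member peaks (13.5%), against 5.12% of all tested peaks on chromosomes 1 to 19, X and Y. Member peaks were longer, with a median of 813 bases against 581, and in the central 300 bases the shares were 3.55% and 2.32%. GCGTG was in 41.8% of member peaks and 30.4% of all, TGANTCA in 36.9% and 32.5%, and the PU.1 letters GAGGAAGT in 14.9% and 13.6%. No other motif was searched, and overlapping matches of different motifs were each counted. None of the printed κB matches lay wholly inside the central 300 bases of its peak. The printed AP-1 match 2.9 kb upstream of Nfkb1 also lay outside them. The latter window and the first Relb window 6.0 kb upstream run a few bases past the peak edge. A match describes letters and is not evidence of a bound factor.

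A total of 8.54 to 34.6 M fragments lay in consensus peaks per library, and LPS libraries were deeper (22.4 to 34.6 M) than unstimulated libraries (8.54 to 25.7 M). The TSS peak of Ahr, which need not cover the disrupted part of the gene and so checks the label only indirectly, had 20.2 to 24.6 CPM in WT unstimulated and 11.5 to 15.1 in AhR-KO unstimulated libraries, and 19 to 22.2 against 11.9 to 16.8 with LPS. All 10 macrophage markers had a TSS peak, as did all 7 alveolar macrophage markers. The alveolar macrophage list summed to 54.0 to 59.8 CPM in WT and 70.2 to 86.8 in AhR-KO unstimulated libraries, and to 46.7 to 55.3 and 53.5 to 68.4 with LPS. Of the other lists, 4 of 5 dendritic cell, 3 of 6 neutrophil, 1 of 5 T cell, 2 of 4 B cell and 2 of 3 epithelial markers had one. Peaks were absent at Clec9a, Ly6g, Mpo, Elane, Cd3e, Cd3g, Cd4, Lck, Cd79a, Pax5 and Krt8. Summed CPM of T cell, B cell and epithelial lists did not exceed 4.20, 10.8 and 17.3 in any library. These were bulk cultures, so a change in the share of cells of a type and a change in accessibility per cell cannot be told apart.

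Levels below are CPM, fragments per M after normalization, as the lowest, median and highest of the 6 libraries of a group or as mean ± SD. Differences are log2 fold changes ± SE with adjusted p-values from edgeR's quasi-likelihood test (two-sided, Benjamini-Hochberg over all 174193 peaks). A differentially accessible region (DAR) had an adjusted p no higher than 0.05 and changed at least 1.5-fold. Peaks are placed by the distance of their centre from the TSS.

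The first question was how LPS changed accessibility around these genes. In WT cells, 68 of 141 member peaks (48.2%) were more accessible with LPS and 17 (12.1%) less, where the background over all tested peaks was 25.4% higher and 21.6% lower. In AhR-KO cells the counts were 69 (48.9%) and 15 (10.6%), against 27.3% and 21.5% of all peaks. The median member log2 fold change was 0.56 in both genotypes, while that of all peaks was -0.01 in WT and 0.05 in AhR-KO. The WT and AhR-KO comparisons share no library. Of the higher DARs, 59 were found in both genotypes, out of 68 in WT and 69 in AhR-KO, and 13 lower DARs were found in both, out of 17 and 15. The shares of all tested peaks that were DARs in both genotypes were not computed, so no excess is read from these joint counts. The 6 LPS values lay wholly above the 6 unstimulated values in 71 peaks in WT (background 20.5%) and in 72 in AhR-KO (24.9%), and wholly below in 16 (18.3%) and 15 (20.6%). By the peak lists called on each library alone, 8 member peaks were called in none of the 12 unstimulated and in all 12 LPS libraries, and 55 were called in all 24. The shares of all consensus peaks with these patterns were not computed, and LPS libraries were deeper. No excess is therefore read from these calls.

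By position, of the 53 tested peaks in introns or exons away from any TSS, 36 were higher in WT and 37 in AhR-KO. Nfkb1 alone held 34 of these 53 peaks and, in each genotype, 24 of the higher ones. The counts inside genes thus rest largely on this long gene, and shares by position over all tested peaks were not computed. Upstream, 17 of 34 were higher in each genotype, and downstream 12 and 13 of 42. By role, 43 of 81 subunit peaks were higher in each genotype, with 11 lower in WT and 10 in AhR-KO, and 25 and 26 of 60 inhibitor peaks were higher, with 6 and 5 lower. Of the 19 peaks with the κB letters, 10 were higher in WT and 8 in AhR-KO, and of the 122 without them 58 and 61. None of the 19 was lower, but they include TSS peaks, and no TSS peak of the 10 genes was lower with LPS. The shares over all tested peaks with the κB letters were not computed, so nothing about the letters is read from these counts. For the counts per gene that follow, the shares of all tested peaks are the LPS backgrounds given above.

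The TSS peaks themselves held a smaller share of LPS DARs than the member peaks as a whole. Of the 10, 2 were DARs with LPS in WT, those of Nfkbiz and Nfkbie, 1 in AhR-KO, that of Nfkbiz, and none between genotypes in either treatment or in the interaction. Each of the 10 was called as a peak in all 24 libraries. Per kb of peak length, the highest mean level in WT unstimulated cells was that of Relb at 35 ± 1.58 CPM per kb (SD, n = 6). Nfkbia followed at 34.1 ± 2.16, Rel at 30.3 ± 1.65, Nfkbiz at 27.1 ± 2.31 and Nfkb1 at 26.7 ± 2.65. Relb and Nfkbia overlapped each other in range, as did Nfkbia and Rel, Rel and Nfkbiz, and Nfkbiz and Nfkb1. A second tier held Tnfaip3, Bcl3 and Nfkb2 at 16.9 ± 0.979, 16.7 ± 0.519 and 16.7 ± 0.785, which did not differ beyond their spread. Nfkbie (10.1 ± 0.552) and Rela (8.53 ± 0.573) came last, with ranges that did not overlap each other (lowest Nfkbie library 9.23, highest Rela library 9.07). With LPS in WT, Nfkbia (44.3 ± 4.34), Nfkbiz (44.3 ± 3.12) and Relb (42.1 ± 4.74) led with overlapping ranges, and Rela was still last at 12.6 ± 1.03.

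**Figure D1:**
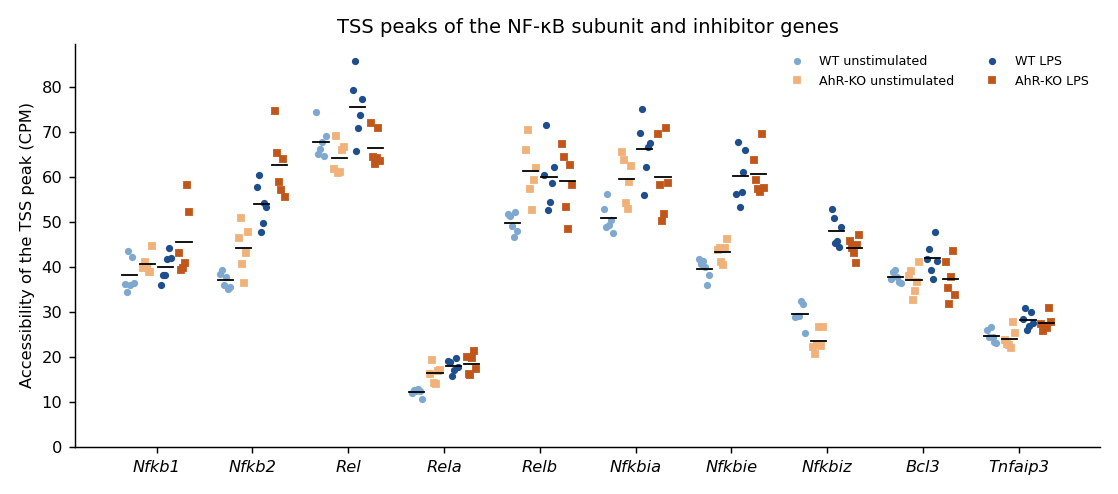
TSS peak accessibility in CPM (y axis) of the 10 genes (x axis) in each of the 24 libraries, with circles for WT, squares for AhR-KO, light colours for unstimulated, dark colours for LPS and a line at the mean of 6. The Nfkbiz TSS peak has unstimulated libraries at 20.6 to 32.3 CPM and LPS libraries at 40.8 to 52.8, while the Tnfaip3 and Bcl3 TSS peaks keep overlapping ranges.

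Among the subunits, Nfkb1 had the most LPS-induced regions, none of them its promoter. Its TSS peak (chr3:135690581-135692006) ran from 34.4 (median 36.3) to 43.6 CPM in WT unstimulated and from 36 (median 40) to 44.2 in WT LPS libraries. In AhR-KO it ran from 39 (median 39.9) to 44.6 without and 39.2 (median 42.0) to 58.1 with LPS. These ranges overlapped throughout, and the log2 fold changes with LPS were 0.075 ± 0.08 in WT (adjusted p = 0.419) and 0.17 ± 0.08 in AhR-KO (adjusted p = 0.0602). Within the gene, by contrast, 24 of the 34 intronic and exonic peaks were higher with LPS in each genotype, and 4 in WT and 3 in AhR-KO were lower.

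The Nfkb1 peak with the smallest p for LPS in both genotypes lay in an intron, 50.6 kb from the TSS (chr3:135640085-135641910), and holds the κB window shown above. Its WT values were 1.85, 2.33 and 3.04 CPM (lowest, median, highest) unstimulated and 28.5, 31.9 and 33.4 with LPS, and its AhR-KO values 1.82, 2.85 and 3.25 and 32.6, 36.2 and 40.9. Every LPS library was far above every unstimulated one. The log2 fold change was 3.71 ± 0.10 in WT (13-fold, adjusted p = 3.11e-26) and 3.72 ± 0.10 in AhR-KO (13.2-fold, adjusted p = 2.42e-27). A further intron peak (chr3:135623354-135624043), chosen after its values were seen, had a numerically larger log2 fold change of 3.95 ± 0.16 in WT and 3.91 ± 0.15 in AhR-KO at a lower level, 0.682 ± 0.22 CPM (SD, n = 6) in WT unstimulated against 10.5 ± 2.02 in WT LPS libraries. The peak that fell most clearly (chr3:135564927-135565770) was within Manba, a lysosomal mannosidase gene beyond the 3′ end of Nfkb1, and its nearest TSS is that of Manba. It went from 14.1, 15.4 and 16.5 CPM to 4.33, 5.07 and 5.54 in WT and from 9.09, 10.6 and 11.5 to 2.89, 3.45 and 4.30 in AhR-KO. It fell by 1.61 ± 0.09 on the log2 scale in WT (adjusted p = 6.71e-18) and by 1.60 ± 0.09 in AhR-KO (adjusted p = 2.16e-17), with no overlap between treatments.

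One Nfkb1 intron peak of 142 bases (chr3:135614491-135614632) was the only member that was a DAR in opposite directions with LPS, and it was chosen for that after its values were seen. It averaged 0.764 ± 0.147 CPM in WT unstimulated and 0.438 ± 0.192 in WT LPS, but 0.299 ± 0.0895 in AhR-KO unstimulated and 0.774 ± 0.175 in AhR-KO LPS libraries (SD, n = 6). These are low levels, and the peak was called in 2 WT unstimulated libraries and in no library of the other groups. The log2 fold change was -0.795 ± 0.25 in WT (adjusted p = 0.00609) and 1.37 ± 0.27 in AhR-KO (adjusted p = 3.15e-05), with an interaction of 2.17 ± 0.37 (adjusted p = 0.00011).

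**Figure D2:**
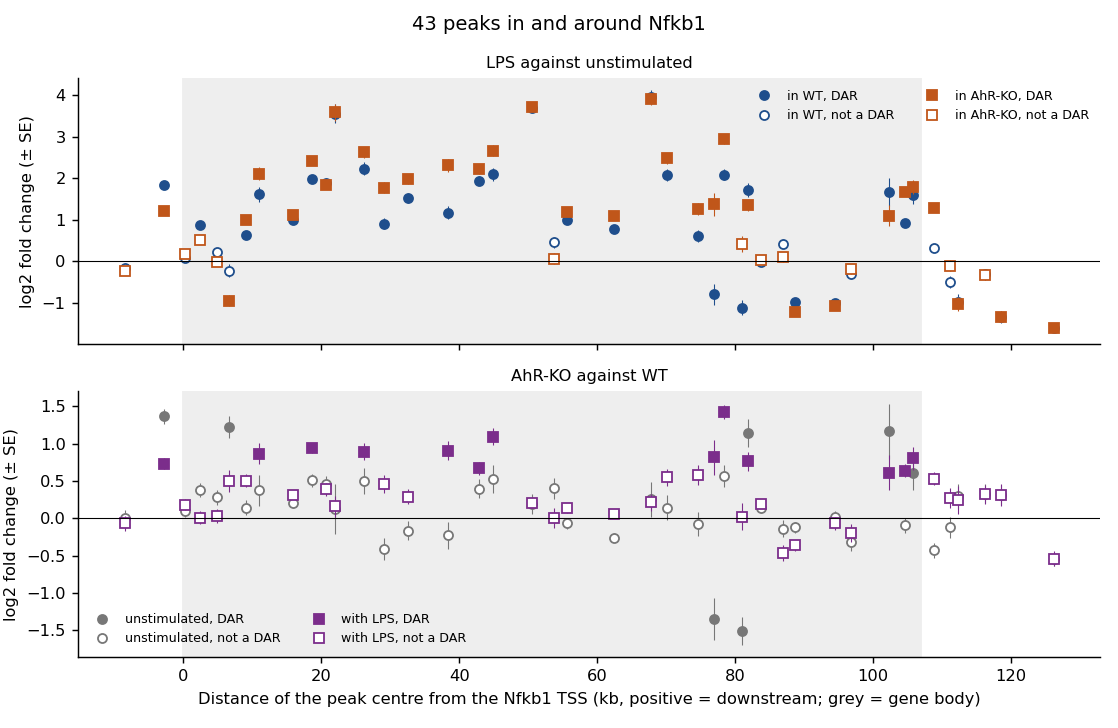
Log2 fold change ± SE (y axis) of the 43 Nfkb1 peaks against the distance of the peak centre from the Nfkb1 TSS in kb (x axis, positive downstream, gene body in grey), for LPS against unstimulated (top) and AhR-KO against WT (bottom), with filled symbols for DARs. The LPS-induced peaks span most of the gene body in both genotypes, and with LPS the 13 genotype DARs all lie above 0.

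Rel, which encodes the c-Rel subunit of lymphoid and myeloid cells, had the highest share of induced peaks among the genes in both genotypes, 11 of 15 in WT and 11 of 15 in AhR-KO, with none lower. Its TSS peak (chr11:23769678-23771914) ran from 64.6 (median 67.0) to 74.6 CPM in WT unstimulated and from 65.8 (median 75.6) to 85.8 in WT LPS. In AhR-KO it ran from 60.9 (median 63.9) to 69.1 and from 62.9 (median 64.3) to 72.0. The ranges overlapped, with log2 fold changes of 0.15 ± 0.055 (adjusted p = 0.0156) and 0.05 ± 0.055 (adjusted p = 0.467), and the AhR-KO against WT value with LPS was -0.19 ± 0.055 (adjusted p = 0.00547), all under 1.5-fold.

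An exonic Rel peak 17 kb inside the gene (chr11:23753007-23754883) rose from 6.05, 7.18 and 8.02 to 15.7, 18.7 and 23.6 CPM in WT. In AhR-KO it rose from 8.81, 9.98 and 10.5 to 20.7, 22.4 and 24.0. Treatments did not overlap in either genotype, and the log2 fold changes were 1.42 ± 0.085 (adjusted p = 8.01e-17) and 1.19 ± 0.08 (adjusted p = 1.23e-15). An intronic peak at 24.4 kb (chr11:23745883-23747354) was called in no unstimulated library and in all 12 LPS libraries. It went from 0.660, 1.16 and 1.46 to 3.73, 4.67 and 5.21 CPM in WT and from 1.32, 1.49 and 1.61 to 5.56, 7.07 and 7.69 in AhR-KO. Again the treatments stood wholly apart, with log2 fold changes of 1.975 ± 0.14 (adjusted p = 1.4e-14) and 2.21 ± 0.13 (adjusted p = 2.55e-17).

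Rela, the main activating subunit, had 2 higher and 3 lower DARs among 9 peaks in each genotype. At its TSS peak (chr19:5636591-5638023), WT unstimulated libraries had 10.7 to 13 CPM (median 12.5) and WT LPS libraries 15.7 to 19.8 (median 18.4). AhR-KO libraries were at 14 to 19.4 (median 16.6) without and 16 to 21.3 (median 18.5) with LPS. The WT unstimulated group was the one that stood apart, below all 3 other groups. LPS changed the peak by 0.56 ± 0.08 in WT (1.48-fold, adjusted p = 2.82e-07), which passed 1.5-fold when WT LPS replicate 3 was left out (0.60), and by 0.18 ± 0.08 in AhR-KO (adjusted p = 0.0485). Away from the TSS, an intron peak (chr19:5643333-5643749) rose by 1.595 ± 0.31 in WT (adjusted p = 2.74e-05) and 2.31 ± 0.255 in AhR-KO (adjusted p = 4.76e-10), from means of 0.180 and 0.276 CPM to 0.624 and 1.38. A peak over the TSS of Sipa1, 23.7 kb downstream (chr19:5660625-5661748), fell by 0.68 ± 0.11 in WT (adjusted p = 1.27e-06), a change that was under 1.5-fold without WT unstimulated replicate 1 (-0.58), and by 0.85 ± 0.11 in AhR-KO (adjusted p = 2.65e-08). A small upstream peak (chr19:5621996-5622233) fell from 0.782, 1.18 and 1.63 to 0.510, 0.547 and 0.660 CPM in WT (by 1.0 ± 0.20, adjusted p = 3.68e-05) and from 1.39, 1.80 and 2.24 to 0.316, 0.460 and 0.646 in AhR-KO (by 1.84 ± 0.19, adjusted p = 1.12e-10).

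Nfkb2 and Relb encode the partners of the alternative NF-κB pathway. The Nfkb2 TSS peak (chr19:46303931-46306147) ran from 35.1 (median 36.9) to 39.4 CPM in WT unstimulated and from 47.9 (median 53.8) to 60.4 in WT LPS, and from 36.5 (median 44.8) to 51.0 and 55.5 (median 61.4) to 74.6 in AhR-KO. LPS libraries lay above unstimulated ones without overlap in each genotype, and the log2 fold changes of 0.54 ± 0.07 (adjusted p = 6.15e-08) and 0.50 ± 0.07 (adjusted p = 1.45e-07) were just under 1.5-fold. An exonic Nfkb2 peak (chr19:46308972-46309306) rose by 0.73 ± 0.11 in WT (adjusted p = 8.92e-07) and 0.83 ± 0.11 in AhR-KO (adjusted p = 3.16e-08). Among the 6 tested Nfkb2 peaks, 2 were higher DARs in WT and 1 in AhR-KO.

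The Relb TSS peak (chr7:19628232-19629656), with its κB match near the TSS, ran from 46.7 (median 50.3) to 52.1 CPM in WT unstimulated and from 52.7 (median 59.5) to 71.6 in WT LPS. It ran from 52.8 (median 60.6) to 70.4 in AhR-KO unstimulated and from 48.5 (median 60.4) to 67.3 in AhR-KO LPS. As at Rela, WT unstimulated libraries lay below the WT LPS and AhR-KO unstimulated libraries with no overlap, and the log2 fold changes were 0.27 ± 0.075 for LPS in WT (adjusted p = 0.00216) and -0.05 ± 0.07 for LPS in AhR-KO (adjusted p = 0.548). The peak 6.0 kb upstream (chr7:19635087-19635756), inside Clptm1 and with the pair of κB windows shown above, was called in none of the unstimulated and all of the LPS libraries. It rose from 0.465, 0.826 and 1.29 to 3.50, 7.20 and 10.7 CPM in WT and from 0.365, 0.490 and 1.10 to 2.85, 3.86 and 5.09 in AhR-KO. The log2 fold changes were 3.04 ± 0.28 (adjusted p = 5.35e-10) and 2.74 ± 0.305 (adjusted p = 1.09e-08). A peak downstream of Relb, inside Clasrp (chr7:19600897-19601178), fell by 0.85 ± 0.23 in WT (adjusted p = 0.0015) and by 1.2 ± 0.23 in AhR-KO (adjusted p = 3.64e-05).

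**Figure D3:**
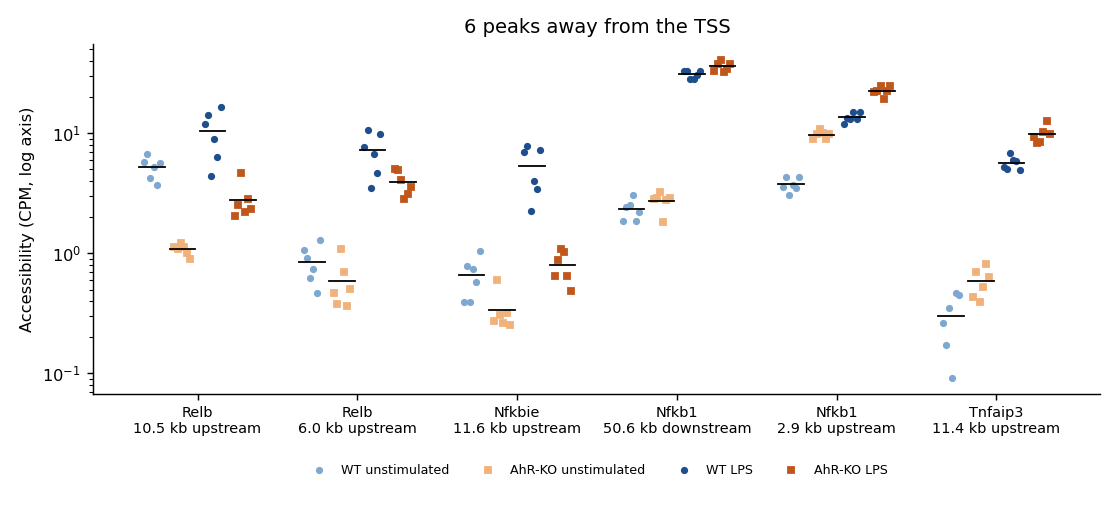
Accessibility in CPM (y axis, log scale) of 6 peaks away from the TSS (x axis) in each library of the 4 groups, with a line at the mean of 6. The Relb peak 10.5 kb upstream and the Nfkbie peak 11.6 kb upstream are lower in AhR-KO LPS than WT LPS libraries on average, and the Nfkb1 peak 2.9 kb upstream and the Tnfaip3 peak 11.4 kb upstream are higher in all 6 AhR-KO LPS libraries than in any WT LPS library.

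Among the inhibitors, Nfkbiz had the clearest promoter response. Its TSS peak (chr16:55838397-55839481) rose from 25.4, 29.1 and 32.3 to 44.5, 47.4 and 52.8 CPM in WT. In AhR-KO it rose from 20.6, 22.7 and 26.6 to 40.8, 44.5 and 47.1. All 12 LPS libraries were above all 12 unstimulated ones, with log2 fold changes of 0.71 ± 0.06 (adjusted p = 5.01e-12) and 0.91 ± 0.06 (adjusted p = 4.91e-15). Of the 15 Nfkbiz peaks, 5 were higher in WT and 9 in AhR-KO, and none was lower.

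The Nfkbie TSS peak (chr17:45554488-45558399) rose from 36.1, 40.3 and 41.9 to 53.4, 58.9 and 67.7 CPM in WT and from 40.5, 43.9 and 46.1 to 56.7, 58.5 and 69.5 in AhR-KO. The treatments did not overlap in either genotype. The log2 fold change in WT was 0.60 ± 0.06 (1.51-fold, adjusted p = 6.85e-11) and that in AhR-KO 0.49 ± 0.06 (1.40-fold, adjusted p = 4.42e-09), so that the peak was just past 1.5-fold in WT and under it in AhR-KO. It fell under 1.5-fold in WT without WT unstimulated replicate 5 (0.575) or, of the WT LPS libraries, replicate 2 (0.56) or 6 (0.57), and the interaction was -0.11 ± 0.08 (adjusted p = 0.406).

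Nfkbia, the gene of the classical IκBα, had a TSS peak (chr12:55491655-55493148) that ran from 47.5 (median 49.8) to 56.3 CPM in WT unstimulated and from 56.1 (median 67.1) to 75.1 in WT LPS. It ran from 52.8 (median 60.7) to 65.5 in AhR-KO unstimulated and from 50.3 (median 58.4) to 71.0 in AhR-KO LPS. The WT ranges overlapped slightly and the AhR-KO ranges overlapped fully, with log2 fold changes of 0.38 ± 0.08 (adjusted p = 7.18e-05) and 0.007 ± 0.08 (adjusted p = 0.942). Around the gene, a peak 18.7 kb downstream (chr12:55473483-55474483) fell from 26.5, 27.6 and 31.5 to 14.2, 17.4 and 20 CPM in WT and from 38.2, 44.2 and 45.6 to 21.9, 22.8 and 28.7 in AhR-KO. The treatments stood apart within each genotype, and it fell by 0.72 ± 0.08 in WT (adjusted p = 1.92e-10) and 0.84 ± 0.07 in AhR-KO (adjusted p = 1.12e-12). A weak peak 19 kb upstream (chr12:55511353-55511836) rose by 2.26 ± 0.35 (adjusted p = 7.41e-07) and 3.06 ± 0.35 (adjusted p = 1.1e-09), from means of 0.187 and 0.144 to 0.970 and 1.22 CPM.

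Tnfaip3 had 10 of 14 peaks higher with LPS in WT and 7 in AhR-KO, with 2 lower in each. The TSS peak (chr10:19014305-19015765) was at 23.1 to 26.6 CPM (median 24.4) in WT unstimulated and 25.9 to 31 (median 28.1) in WT LPS libraries, and at 22.1 to 27.8 (median 23.3) and 25.8 to 30.9 (median 27.1) in AhR-KO. The ranges overlapped, and the log2 fold changes were 0.20 ± 0.06 (adjusted p = 0.0064) and 0.19 ± 0.06 (adjusted p = 0.00642). In contrast, the AP-1-containing peak 11.4 kb upstream (chr10:19026492-19027194) was called in no unstimulated and in every LPS library. It went from 0.0920, 0.309 and 0.465 to 4.99, 5.58 and 6.83 CPM in WT and from 0.395, 0.579 and 0.821 to 8.33, 9.64 and 12.6 in AhR-KO. This was the largest log2 fold change among the tested member peaks in both genotypes, 4.32 ± 0.21 in WT (19.9-fold, adjusted p = 1.38e-19) and 4.08 ± 0.17 in AhR-KO (16.9-fold, adjusted p = 7.17e-22). A peak over the start of a shorter transcript, 3.2 kb inside (chr10:19011681-19012843), rose by 2.44 ± 0.10 (adjusted p = 4.74e-21) and 1.91 ± 0.09 (adjusted p = 1.71e-19), and a peak 18.4 kb upstream (chr10:19033459-19034174) fell by 1.11 ± 0.07 (adjusted p = 1.25e-15) and 1.38 ± 0.07 (adjusted p = 7.84e-19).

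The Bcl3 TSS peak (chr7:19822384-19824639) ran from 36.4 (median 37.6) to 39.4 CPM in WT unstimulated, 37.4 (median 41.5) to 47.8 in WT LPS, 32.7 (median 37.3) to 41.2 in AhR-KO unstimulated and 31.9 (median 36.6) to 43.6 in AhR-KO LPS libraries. All 4 ranges overlapped, with log2 fold changes for LPS of 0.15 ± 0.07 (adjusted p = 0.0529) and 0.008 ± 0.07 (adjusted p = 0.921). The Bcl3 peak with the smallest p for a rise with LPS was 20.7 kb downstream (chr7:19801835-19802317), closest to the TSS of Cblc, and 87.6% of its bases are masked as repeats. It rose from 0.439 ± 0.23 to 2.49 ± 0.353 CPM in WT (log2 fold change 2.43 ± 0.20, adjusted p = 3.87e-13) and from 0.918 ± 0.167 to 3.70 ± 0.262 in AhR-KO (2.005 ± 0.16, adjusted p = 2.26e-13), and unstimulated it was higher in AhR-KO by 1.0 ± 0.23 (adjusted p = 0.000675). Of the 11 Bcl3 peaks, 4 were higher in WT and 6 in AhR-KO, and 2 were lower in each.

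The second question was how loss of AhR changed these regions. In unstimulated cells, 21 of 141 member peaks (14.9%) were more accessible in AhR-KO and 12 (8.5%) less, against 9.95% and 12.6% of all tested peaks. With LPS the counts were 22 (15.6%) and 8 (5.7%), against 13.4% and 13.1%. The share of higher peaks was above the background unstimulated and near it with LPS, and the share of lower peaks was below it in both. The balance of the unstimulated background depended on the scaling, with 17332 higher and 22015 lower DARs over all peaks with TMM and 20676 and 19366 with RLE size factors, under which the member counts were 25 and 12. The 2 comparisons share no library, and 9 peaks were higher in both, 2 lower in both and 1 opposite. The shares of all tested peaks with these joint patterns were not computed. AhR-KO values lay wholly above WT values in 28 peaks unstimulated (background 9.78%) and 29 with LPS (10.6%), and wholly below in 11 (11.3%) and 8 (8.96%). With LPS, Nfkb1 alone held 13 of the 22 higher DARs, and the other 9 genes together had 9 higher and 8 lower of 98.

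**Figure D4:**
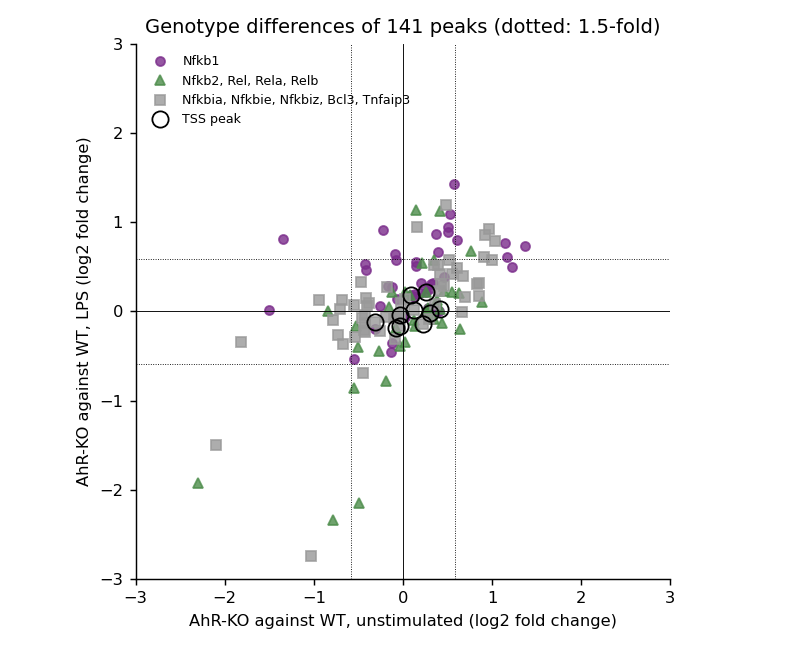
Log2 fold change of AhR-KO against WT with LPS (y axis) against the same without LPS (x axis) for the 141 tested member peaks, with colour and shape for the genes, dotted lines at 1.5-fold and rings around TSS peaks. The 10 ringed TSS peaks lie inside the dotted lines on both axes, and the lowest points with LPS are the Nfkbie peak 11.6 kb upstream at -2.74 and the Rel peak 47.4 kb downstream at -2.34.

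At the promoters, Relb, Rela and Nfkbia shared a shape that stayed under 1.5-fold. Unstimulated AhR-KO libraries were above WT at the TSS peaks of Rela (0.41 ± 0.085, adjusted p = 0.000144), Relb (0.30 ± 0.075, adjusted p = 0.00167) and Nfkbia (0.23 ± 0.08, adjusted p = 0.0184), the first 2 with no overlap. With LPS the log2 fold changes were 0.03 ± 0.08 (adjusted p = 0.789), -0.02 ± 0.07 (adjusted p = 0.836) and -0.14 ± 0.08 (adjusted p = 0.124). The interaction, which tests this difference, was -0.385 ± 0.12 for Rela (adjusted p = 0.0202), -0.32 ± 0.105 for Relb (adjusted p = 0.0344) and -0.37 ± 0.11 for Nfkbia (adjusted p = 0.0179). The summed TSS peaks of the 10 macrophage markers ran from 265 to 339 CPM in AhR-KO and from 246 to 280 in WT unstimulated libraries. With LPS these sums ran from 241 to 314 and from 251 to 275. The shape was therefore not shown to be particular to Relb, Rela and Nfkbia. The Nfkbiz TSS peak was lower in unstimulated AhR-KO cells by 0.32 ± 0.07 on the log2 scale (adjusted p = 0.000199), also under 1.5-fold.

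Around Nfkb1, 13 of 43 peaks (30.2%) were higher DARs in AhR-KO cells with LPS and none was lower, against 13.4% and 13.1% of all tested peaks. Of these 13, 12 lay inside the gene, and the TSS peak was not among them (0.19 ± 0.08, adjusted p = 0.0509). Unstimulated, 5 were higher and 2 lower. The peak with the smallest p was the intron peak 78.4 kb from the TSS (chr3:135612871-135613523) shown above. It had 4.08, 4.83 and 5.74 CPM in WT LPS and 10.8, 13.4 and 13.6 in AhR-KO LPS libraries, against 0.883, 1.11 and 1.43 and 1.5, 1.63 and 1.95 unstimulated. The AhR-KO LPS libraries lay well above the WT LPS ones, with no overlap. The log2 fold change with LPS was 1.43 ± 0.095 (2.69-fold, adjusted p = 6.91e-14), and the interaction was 0.86 ± 0.18 (adjusted p = 0.00116). A pair of other intron peaks, chosen after their values were seen, followed. At 44.9 kb (chr3:135646024-135647257), WT LPS libraries had 2.91 to 4.43 CPM and AhR-KO LPS libraries 6.46 to 8.67 (1.09 ± 0.115, adjusted p = 1.35e-09). At 18.6 kb (chr3:135672224-135673609) they had 18.9 to 22.3 and 38.4 to 43.8 (0.95 ± 0.065, adjusted p = 1.08e-13). Neither pair of ranges overlapped.

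The Nfkb1 peak 2.9 kb upstream of the TSS (chr3:135694078-135694749) had 3.05, 3.65 and 4.36 CPM in WT unstimulated and 8.89, 9.85 and 10.9 in AhR-KO unstimulated libraries, and 11.9, 13.3 and 15 against 19.4, 22.6 and 24.8 with LPS. It was called in none of the WT unstimulated libraries and in all 18 others. The 4 groups formed 4 separate ranges, with AhR-KO above WT by 1.37 ± 0.10 unstimulated (2.58-fold, adjusted p = 1.4e-13) and by 0.73 ± 0.08 with LPS (adjusted p = 1.07e-09), and with LPS above unstimulated by 1.85 ± 0.09 in WT (adjusted p = 5.03e-19) and 1.22 ± 0.08 in AhR-KO (adjusted p = 5.37e-16). The genotype difference was smaller with LPS (interaction -0.63 ± 0.12, adjusted p = 0.000507), under 1.5-fold without WT unstimulated replicate 3 (-0.57). In the other direction, an intron peak at 80.9 kb (chr3:135610533-135610758) fell from 1.86, 2.61 and 3.63 CPM in WT to 0.790, 0.935 and 1.19 in AhR-KO unstimulated libraries (-1.5 ± 0.19, adjusted p = 4.34e-08). With LPS the genotypes overlapped (0.775 to 1.69 and 0.825 to 1.70), the WT value having fallen by 1.12 ± 0.17 (adjusted p = 7.73e-07), and the interaction was 1.525 ± 0.26 (adjusted p = 0.000126). A peak just past the 3′ end (chr3:135581466-135584133) had an interaction of 0.96 ± 0.135 (adjusted p = 6.96e-06), with 6.98 to 9.77 and 4.82 to 7.41 CPM unstimulated and 8.91 to 11 and 12.7 to 16.6 with LPS in WT and AhR-KO.

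Around Tnfaip3, 7 of 14 peaks (50.0%) were higher in unstimulated AhR-KO cells and none was lower, against 9.95% and 12.6% of all tested peaks. With LPS 4 (28.6%) were higher and none lower, against 13.4% and 13.1%. The TSS peak was not among them, with 23.1 to 26.6 CPM in WT and 22.1 to 27.8 in AhR-KO unstimulated libraries. The smallest p unstimulated was that of an exonic peak 6.6 kb inside (chr10:19007853-19009728), at 22.9, 23.8 and 30.6 CPM in WT and 35.4, 40.6 and 41.7 in AhR-KO. With LPS the genotypes had 41.0, 47.2 and 53.2 and 43.4, 46.9 and 54.4. WT unstimulated libraries thus lay below the other 3 groups, whose ranges overlapped in part. The difference was 0.66 ± 0.07 unstimulated (adjusted p = 1.65e-09), LPS raised the peak in WT by 0.92 ± 0.07 (adjusted p = 4.43e-14), and the interaction was -0.66 ± 0.10 (adjusted p = 1.17e-05). The induced peak 11.4 kb upstream was higher in AhR-KO with LPS by 0.795 ± 0.12 (adjusted p = 1.19e-06), with no overlap, and unstimulated by 1.03 ± 0.30 (adjusted p = 0.00517), at levels under 1 CPM in every library. The peak over the shorter transcript's start was higher in unstimulated AhR-KO cells by 0.69 ± 0.115 (adjusted p = 6.78e-06), at 3.89 to 5.51 against 2.18 to 3.27 CPM.

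Of the 8 Relb peaks, none was a higher genotype DAR, against 9.95% of all tested peaks unstimulated and 13.4% with LPS. The lower DARs of Relb were 1 (12.5%) unstimulated and 3 (37.5%) with LPS, against 12.6% and 13.1%. The peak 10.5 kb upstream (chr7:19639177-19640645), inside Clptm1, held 5 GCGTG matches, and 41.3% of its bases are masked as repeats. It had 3.72, 5.49 and 6.76 CPM in WT unstimulated and 0.890, 1.11 and 1.23 in AhR-KO unstimulated libraries, and 4.42, 10.5 and 16.7 against 2.04, 2.43 and 4.70 with LPS. The unstimulated genotypes stood apart, whereas with LPS the highest AhR-KO library passed the lowest WT one. The log2 fold change was -2.30 ± 0.32 unstimulated (adjusted p = 2.76e-06) and, in LPS-treated cells, -1.93 ± 0.255 (adjusted p = 1.36e-06). This peak was called in all 6 WT unstimulated and in no AhR-KO unstimulated library, and in 6 and 5 with LPS. LPS raised it in both genotypes, by 0.97 ± 0.245 in WT (adjusted p = 0.00134) and 1.35 ± 0.33 in AhR-KO (adjusted p = 0.000982). An exonic Relb peak 17.2 kb inside (chr7:19611939-19612563) had 1.09, 2.49 and 4.56 CPM in WT LPS and 0.435, 0.598 and 0.727 in AhR-KO LPS libraries, with no overlap (-2.15 ± 0.28, adjusted p = 2.85e-07). The peak 6.0 kb upstream was lower in AhR-KO with LPS by 0.86 ± 0.22 on the log2 scale (adjusted p = 0.00221), with overlapping ranges.

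The lowest AhR-KO value relative to WT with LPS was at Nfkbie, 11.6 kb upstream and inside Tmem151b (chr17:45543839-45544429). WT libraries went from 0.396, 0.659 and 1.04 CPM unstimulated to 2.27, 5.51 and 7.82 with LPS. AhR-KO libraries went from 0.254, 0.291 and 0.595 to 0.486, 0.762 and 1.08. Every WT LPS library was above every AhR-KO LPS library, and the peak was called in the 6 WT LPS libraries and in no other. The log2 fold change was -2.74 ± 0.27 (adjusted p = 3.97e-09), the LPS effect was 2.98 ± 0.29 in WT (adjusted p = 8.32e-10) and 1.26 ± 0.40 in AhR-KO (adjusted p = 0.00744), and the interaction was -1.71 ± 0.54 (adjusted p = 0.0317). The interaction was no longer past the threshold without WT unstimulated replicate 1 (-1.62), WT unstimulated replicate 3 (-1.58) or AhR-KO unstimulated replicate 2 (-1.51). A peak inside Slc35b2 on the other side of Nfkbie (chr17:45566186-45566468) was higher in AhR-KO by 0.96 ± 0.16 unstimulated (adjusted p = 4.43e-06) and, in LPS-treated cells, by 0.93 ± 0.135 (adjusted p = 7.38e-07), at 1.01 to 1.87 against 2.65 to 3.46 and 1.53 to 2.18 against 2.92 to 5.13 CPM.

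Of the 15 Nfkbiz peaks, 1 (6.7%) was a higher and 5 (33.3%) were lower genotype DARs unstimulated, against 9.95% and 12.6% of all tested peaks. With LPS none was higher and 1 (6.7%) lower, against 13.4% and 13.1%. The peak 34 kb downstream of the Nfkbiz TSS (chr16:55804676-55805062) was lower in AhR-KO in both treatments. It had 0.839, 1.66 and 2.38 against 0.275, 0.332 and 0.593 CPM unstimulated and 0.861, 1.5 and 1.99 against 0.287, 0.538 and 0.733 with LPS. Genotypes did not overlap in either treatment (-2.095 ± 0.27, adjusted p = 6.07e-08, and -1.5 ± 0.24, adjusted p = 2.86e-06). A peak 29 kb downstream (chr16:55809257-55810606) had an interaction of 0.73 ± 0.20 (adjusted p = 0.00998), being lower in AhR-KO unstimulated by 0.71 ± 0.16 (adjusted p = 0.000438) at 0.966 to 2.11 against 1.90 to 3.37 CPM and at 4.97 to 7.21 against 5.24 to 6.32 with LPS. An intron peak at 2.9 kb (chr16:55835751-55836228) was higher in unstimulated AhR-KO cells, at 6.73 to 8.69 against 3.50 to 4.81 CPM (0.86 ± 0.10, adjusted p = 9.16e-09).

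At Nfkbia, which lies 19.95 Mb from Ahr on chromosome 12, the downstream peak that LPS lowered was higher in unstimulated AhR-KO cells by 0.61 ± 0.07 (adjusted p = 2.14e-08), with no overlap between genotypes. A peak 17.6 kb upstream (chr12:55509978-55510407) was lower, at 0.325, 0.450 and 0.547 against 1.19, 1.52 and 1.98 CPM in WT (-1.82 ± 0.22, adjusted p = 1.74e-08). With LPS it was at 0.284 to 0.436 and 0.293 to 0.652, and the interaction was 1.47 ± 0.33 (adjusted p = 0.00229). A weak peak 20 kb upstream (chr12:55512493-55512876) was higher in AhR-KO with LPS by 1.19 ± 0.245 (adjusted p = 0.000132), at 0.632 to 1.5 against 0.261 to 0.603 CPM. The strain name of the AhR-KO mice (B6.129) records a 129 origin of the altered allele, and a part of 129 sequence around Ahr in these values was not tested.

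The genotype DARs of the remaining genes were, unstimulated, 2 higher and 2 lower of 11 peaks at Bcl3, 1 and 1 of 15 at Rel, 2 and 0 of 9 at Rela and 1 and 0 of 6 at Nfkb2. With LPS there were none at Bcl3 and Nfkb2, 2 lower at Rel and 3 higher at Rela. Over all tested peaks, 9.95% were higher and 12.6% lower unstimulated, and 13.4% and 13.1% with LPS. For Bcl3, a peak inside Cblc (chr7:19789202-19790491) was lower by 0.725 ± 0.09 in unstimulated AhR-KO cells (adjusted p = 8.56e-08), at 4.65 to 5.86 against 6.75 to 9.97 CPM, and fell by 0.75 ± 0.09 with LPS in WT (adjusted p = 6.13e-09). A peak 18.3 kb upstream of Bcl3 (chr7:19840534-19841558) was higher, at 6.65 to 7.42 against 3.43 to 4.46 CPM (0.83 ± 0.10, adjusted p = 2.96e-08), and fell by 1.035 ± 0.10 with LPS in AhR-KO (adjusted p = 1.62e-11). Neither pair of genotype ranges overlapped.

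For Rel, a peak 47.4 kb from its TSS and inside Pus10 (chr11:23723361-23723874) had 0.488, 1.87 and 2.97 CPM in WT LPS and 0.255, 0.380 and 0.407 in AhR-KO LPS libraries, with no overlap (-2.34 ± 0.33, adjusted p = 7.85e-07). A peak 8.0 kb upstream of Rel (chr11:23778621-23779263) was lower in unstimulated AhR-KO cells by 0.84 ± 0.22 (adjusted p = 0.00212), at 0.729 to 1.40 against 1.05 to 2.35 CPM. Its interaction, 0.845 ± 0.27 (adjusted p = 0.0314), was lost without any 1 of 8 libraries, the value then lying between 0.75 (without WT unstimulated replicate 4) and 0.82 (without AhR-KO unstimulated replicate 1). The others were WT unstimulated replicates 1 and 6 (0.81 and 0.80), AhR-KO unstimulated replicates 2 and 5 (0.80 and 0.77) and, in the AhR-KO LPS group, replicate 3 (0.76) and replicate 6 (0.80). A further peak inside Pus10 (chr11:23718918-23719261) was higher in unstimulated AhR-KO cells by 0.63 ± 0.17 (adjusted p = 0.00242). This call was lost without WT unstimulated replicate 1 (0.53), WT unstimulated replicate 2 (0.53) or AhR-KO unstimulated replicate 3 (0.57).

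For Rela, a peak 9.4 kb upstream (chr19:5627959-5628194) was at 0.456, 1.0 and 1.2 CPM in WT LPS and 1.67, 2.02 and 2.20 in AhR-KO LPS libraries, without overlap (1.14 ± 0.18, adjusted p = 3.52e-06). Its interaction of 0.995 ± 0.34 (adjusted p = 0.0418) was lost in 13 of the 24 fits that each left out a library, with values of 0.86 to 1.01. These libraries were WT unstimulated replicates 2, 5 and 6, AhR-KO unstimulated replicates 1, 2, 3, 4 and 6, 2 of the WT LPS group (replicates 4 and 6) and 3 of the AhR-KO LPS group (3, 4 and 5). The intron peak of Rela named above was higher in AhR-KO with LPS by 1.13 ± 0.21 (adjusted p = 3.41e-05), and the upstream peak that LPS lowered had an interaction of -0.84 ± 0.28 (adjusted p = 0.0369) that was lost in 11 of those fits (-0.83 to -0.74), namely without WT unstimulated replicate 3 or 4, AhR-KO unstimulated replicate 1, 2 or 5, WT LPS replicate 3 or 4 or AhR-KO LPS replicate 3, 4, 5 or 6. That peak was higher in unstimulated AhR-KO cells by 0.635 ± 0.18 (adjusted p = 0.00427), a call lost without WT unstimulated replicate 4 (0.53) or AhR-KO unstimulated replicate 1 (0.55). A peak 18.1 kb upstream (chr19:5619171-5619507), nearer to Kat5, was higher by 0.76 ± 0.19 unstimulated (adjusted p = 0.00109) and, in LPS-treated cells, by 0.68 ± 0.20 (adjusted p = 0.00486), the latter lost without AhR-KO LPS replicate 1 (0.57). For Nfkb2, a peak inside Psd (chr19:46319074-46319372) was higher in unstimulated AhR-KO cells by 0.89 ± 0.205 (adjusted p = 0.000588) and rose with LPS in WT by 1.33 ± 0.19 (adjusted p = 1.96e-07), at 0.660 to 1.28 and 0.922 to 1.99 CPM unstimulated and 1.69 to 2.43 and 1.44 to 2.76 with LPS. Its interaction of -0.78 ± 0.26 (adjusted p = 0.0359) was lost in 10 of those fits (-0.77 to -0.70), namely without WT unstimulated replicate 1, 2 or 4, AhR-KO unstimulated replicate 1, 5 or 6, WT LPS replicate 4 or 5 or AhR-KO LPS replicate 3 or 4.

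The third question was whether the genotype difference itself depended on LPS. The interaction was a DAR in the positive direction in 13 of 141 member peaks (9.2%) and in the negative direction in 6 (4.3%), against 5.83% and 4.58% of all tested peaks. The 6 became 3 without WT unstimulated replicate 3 and 9 without WT LPS replicate 3, values on either side of the background, and no direction is read from it. The background also turned with the scaling, from 10147 positive and 7985 negative DARs with TMM to 8660 and 9574 with RLE size factors. Nfkb1 held 8 of the 13 and 2 of the 6. The median member interaction was 0.009, beside 0.039 for all peaks.

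The 8 member peaks that were lower in AhR-KO with LPS varied among the WT LPS libraries, which was noticed after the values were seen. They were the Relb peaks 10.5 kb upstream, 6.0 kb upstream and 17.2 kb inside, the Nfkbie peak 11.6 kb upstream and another at 10.1 kb upstream (chr17:45545137-45546059), the Rel peaks 47.4 kb downstream and 15.5 kb upstream (chr11:23786191-23786716) and the Nfkbiz peak 34 kb downstream. The dendritic cell list (Flt3, Zbtb46, Ccr7 and Xcr1 with a TSS peak, Clec9a without one) summed to 45.7, 50.2, 35, 42.9, 38.9 and 52.8 CPM in WT LPS replicates 1 to 6, and to 26.9 to 33.1 in the AhR-KO LPS libraries. All WT LPS libraries were therefore above all AhR-KO LPS libraries for this list, with the Flt3 TSS peak at 8.12 to 15.2 against 3.75 to 5.06 CPM and that of Ccr7 at 3.27 to 10.5 against 1.75 to 4.47. The other 2 peaks of the list overlapped between genotypes, Zbtb46 at 15.5 to 21.9 against 13.2 to 18 CPM and Xcr1 at 6.69 to 8.50 against 6.88 to 9.24. Without LPS the list was at 40.2 to 45.7 in WT and 37.2 to 45.7 in AhR-KO, and its peaks again differed among themselves: the AhR-KO against WT log2 fold change was -1.16 at Flt3, -0.825 at Ccr7, 0.21 at Zbtb46 and 0.04 at Xcr1. The macrophage list was at 251 to 275 in WT LPS and 241 to 314 in AhR-KO LPS, and the neutrophil list at 34.5 to 51.6 and 43.3 to 51.1.

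The Relb peak 10.5 kb upstream had 12, 14.3, 4.42, 8.99, 6.40 and 16.7 CPM in WT LPS replicates 1 to 6, the same order as the list. The order was another in the AhR-KO LPS libraries, where replicates 3 and 4 had the highest list sums (both 33.1) and 4.70 and 2.22 CPM at this peak, the highest and the second lowest of their group. By single TSS peaks of the list, AhR-KO LPS replicate 3 was the highest of its group at Ccr7 (4.47 CPM, next 2.59) and Flt3 (5.06, next 4.91). It was not the highest at Zbtb46 or Xcr1. The WT LPS replicates with the highest list sums, 1, 2 and 6, were the 3 highest WT LPS libraries in 7 of the 8 peaks, the exception being the Nfkbiz peak. The same held for 33 of 141 member peaks (23.4%), for 1 of the 22 that were higher in AhR-KO with LPS and for 13.7% of all tested peaks. Without these 3 libraries, an alternative chosen after seeing the data, 5 of the 8 remained DARs. Since the libraries left out were the highest WT LPS ones in 7 of these peaks, a smaller difference follows from the choice itself, and the values show only what the other libraries hold. Their log2 fold changes were then -2.03 ± 0.22 at Nfkbie 11.6 kb upstream (adjusted p = 2.34e-09), -1.36 ± 0.25 at Relb 17.2 kb inside (adjusted p = 3.89e-05), -1.34 ± 0.30 at Rel 47.4 kb downstream (adjusted p = 0.000557), -1.30 ± 0.28 at Nfkbiz (adjusted p = 0.000277) and -1.26 ± 0.19 at Relb 10.5 kb upstream (adjusted p = 6.24e-06). The other 3 did not stay past the threshold: Relb 6.0 kb upstream at -0.32 ± 0.20 (adjusted p = 0.216), Rel 15.5 kb upstream at -0.24 ± 0.23 (adjusted p = 0.45) and Nfkbie 10.1 kb upstream at -0.43 ± 0.19 (adjusted p = 0.0797). The LPS rise in WT at Relb 10.5 kb upstream (0.32) and the interaction at Nfkbie 11.6 kb upstream (-1.02) were also lost, while the LPS rise in WT at Relb 6.0 kb upstream was kept. The part of dendritic cells in these values was not tested.

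**Figure D5:**
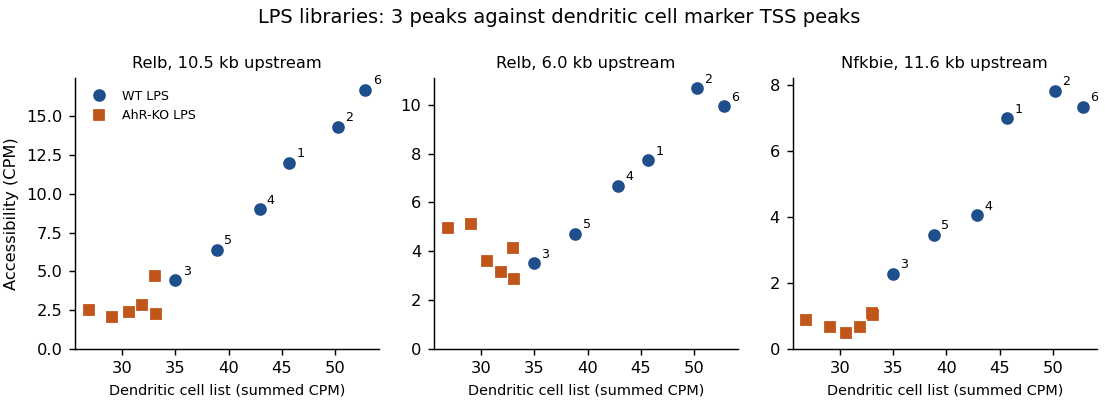
Accessibility in CPM (y axis) of 3 peaks against the summed CPM of the dendritic cell TSS peaks (x axis) in the 12 LPS libraries, with circles for WT LPS (numbered by replicate) and squares for AhR-KO LPS. WT LPS libraries 1, 2 and 6, at 45.7 to 52.8 on the x axis, are the highest in all 3 panels, and AhR-KO LPS libraries sit at 26.9 to 33.1.

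The wider NF-κB pathway was described with a list of 40 further genes (other IκBs, IκB kinases, TRAF adaptors, ubiquitin enzymes and their partners). These had 584 tested peaks, of which 180 (30.8%) were higher and 67 (11.5%) lower with LPS in WT and 205 (35.1%) and 78 (13.4%) in AhR-KO. Unstimulated AhR-KO against WT gave 53 higher (9.1%) and 42 lower (7.2%), against 9.95% and 12.6% of all peaks, and with LPS 58 (9.9%) and 52 (8.9%), against 13.4% and 13.1%. The interaction gave 32 (5.5%) and 31 (5.3%), against 5.83% and 4.58%. For LPS, the background was 25.4% higher and 21.6% lower in WT and 27.3% and 21.5% in AhR-KO, and the shares of higher peaks were nearer to it than those of the 10 genes. Of 39 tested TSS peaks, 4 were higher with LPS in WT, and 4 were higher and 1 lower in AhR-KO. Shares over the TSS peaks of all genes were not computed. Tnip1, a partner of the Tnfaip3 protein, had the smallest p, with 12.3 to 14.2 and 28.7 to 33.1 CPM in WT (1.21 ± 0.06, adjusted p = 1.96e-18) and 13.7 to 15 and 26.1 to 34.6 in AhR-KO (1.08 ± 0.06, adjusted p = 1.5e-17). The treatments stood apart in each genotype. The lower one was Tab1, an adaptor of a kinase upstream of the IκB kinases, at 19.1 to 23.6 and 10.3 to 14.4 CPM (-0.79 ± 0.07, adjusted p = 8.63e-12). Between genotypes 1 TSS peak was a DAR unstimulated, that of the adaptor Traf1, at 1.90 to 2.58 against 2.75 to 4.04 CPM (0.61 ± 0.135, adjusted p = 0.000349), and none was with LPS or in the interaction.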

How the data were processed

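The study made ATAC-seq libraries from 24 BMDM cultures and, as its methods and the submitters' processing notes describe, ran the nf-core atacseq pipeline on mm10 (bcl2fastq 2.20.0, MACS2, featureCounts 2.0.1). The authors deposited a table of fragment counts per consensus peak, counted without normalization with a minimum overlap fraction of 0.2, and broad peak lists per library, whose deposited −log10 q values began at 1.00 to 1.03. The lists were used only to count the libraries in which a member was called. Coordinates are as deposited, so starts lie 1 base before the first base counted from 1.

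Samples were grouped by the labels into 4 groups of 6. Counts were tested with edgeR 4.0.16 (filterByExpr by group, TMM factors of 0.976 to 1.04, trended dispersions, robust quasi-likelihood test, all 24 libraries, group as the only term) in R 4.3.3, with Benjamini-Hochberg adjustment over 174193 peaks. A DAR had an adjusted p of at most 0.05 and at least 1.5-fold. The SE is the absolute log2 fold change divided by the square root of F. The 5 comparisons were AhR-KO against WT without and with LPS, LPS against unstimulated in each genotype, and their interaction (the genotype effect with LPS minus that without). CPM used the TMM library sizes. Per-library counts ranged from 8.54 to 34.6 M in peaks. At the lowest depth 1 CPM is under 9 fragments, so calls at such levels rest on few reads.

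No 2 libraries of a group had the same counts: over 60 within-group pairs the lowest chi-square per peak was 1.23. No reference value for a library sequenced again was computed, and pairs across groups were not compared, so a repeated library is not excluded. In counts simulated for the unstimulated genotype comparison (165278 peaks), 15 of 67 peaks changed 1.5-fold, 53 of 67 changed 2-fold and 62 of 66 changed 4-fold were called, with 9 false calls. Of these changed peaks, 65, 63 and 62 passed the count filter and were tested. Changes near 1.5-fold are therefore often missed, in part because a true 1.5-fold change lies on the cut that defines a DAR. The study gives 6 animals per group, and p-values measure the spread between these cultures of 1 experiment.

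Members, the 40-gene pathway list and the marker lists were chosen with earlier results of these data known. The peaks named were, for each gene, the TSS peak and those with the smallest p in each direction in each comparison among DARs, and for the pathway its TSS peaks with the smallest p. The exceptions are said to be chosen after their values were seen. Motifs and sequences were read from the GRCm38.p6 RefSeq genome. Alternatives were RLE size factors, DESeq2 1.42.0, no count filter, other folds and windows, a replicate block, fits of the libraries compared alone and each library left out. Calculations also used Python 3.11.15, pandas 2.3.3 and matplotlib 3.10.9.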

Additional observations from a re-analysis of the deposited data

Results flagged for a closer look

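In 12 named peaks the genotype effect differed between LPS and unstimulated cells by the interaction test of edgeR (adjusted p of at most 0.05 and at least 1.5-fold). The differences keep their sign, so a higher value is not always a wider gap between genotypes. The AhR-KO against WT log2 fold change was higher with LPS by 0.96 at Nfkb1 past the 3′ end. It was higher by 1.525 at the Nfkb1 intron peak 80.9 kb from the TSS, where it went from -1.50 to 0.02, and by 0.86 at the one 78.4 kb from it. The other rises were 1.47 at Nfkbia 17.6 kb upstream, 0.73 at Nfkbiz 29 kb downstream, 0.845 at Rel 8.0 kb upstream and 0.995 at Rela 9.4 kb upstream. The log2 fold change was lower with LPS, with differences of -0.63 at Nfkb1 2.9 kb upstream, -0.78 at Nfkb2 14.9 kb downstream and -0.84 at Rela 15.4 kb upstream. The difference was -0.66 at Tnfaip3 6.6 kb inside. At Nfkbie 11.6 kb upstream it was -1.71, a wider gap, as the log2 fold change went from -1.03 to -2.74.

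In 7 of 192 groups of 6 values (48 named peaks in 4 groups), 1 library stood apart from the other 5 by its gap relative to the range, and chance gives about 1 in 20. AhR-KO LPS replicate 1 was lowest at the Nfkb1 intron peak 78.4 kb from the TSS (10.8 CPM, next 13.1), and AhR-KO unstimulated replicate 4 at the one 50.6 kb from it (1.82, next 2.78). AhR-KO unstimulated replicate 2 was highest at Nfkbie 11.6 kb upstream (0.595, next 0.319), WT unstimulated replicate 3 at Relb 28.4 kb downstream (3.53, next 2.56), AhR-KO LPS replicate 3 at Relb 10.5 kb upstream (4.70, next 2.85) and AhR-KO LPS replicate 5 at the Tnfaip3 TSS (30.9, next 27.7). WT LPS replicate 3 was lowest at the shorter Tnfaip3 transcript's start (13.9, next 15.6).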

How the results depend on the processing

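No named call or count of member DARs changed direction under any alternative run. Counts moved mostly with the definition of a DAR or a member. With a minimum of 2-fold, AhR-KO against WT gave 5 higher and 5 lower DARs unstimulated and 5 and 5 with LPS, LPS in WT gave 8 lower, and the interaction gave 4 higher and 1 lower. With no minimum fold the genotype counts were 49 and 28 unstimulated and 54 and 20 with LPS, and the interaction 20 and 14. A window of 5 kb gave 11 higher and 5 lower unstimulated, 1 lower with LPS, 4 and 3 lower for LPS in WT and AhR-KO, and 3 lower for the interaction. Gene bodies alone gave 8 and 4, 13 and 1, 39 and 4, 39 and 3, and 7 and 2, in the order of the comparisons. These settings act by their own construction.

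Leaving out each library gave 19 to 23 higher and 11 to 13 lower DARs for genotype unstimulated, 21 to 27 and 8 to 10 with LPS, 66 to 71 and 16 to 17 for LPS in WT, 68 to 70 and 15 to 16 in AhR-KO, and 11 to 14 and 3 to 9 for the interaction, where 3 was without WT unstimulated replicate 3. Over 3102 values of named peaks, 3035 kept their call, 66 lost it, 56 of them with a library left out, and 1 gained it. RLE size factors and DESeq2 ended the interaction at Rela 9.4 kb upstream (0.95 and 0.95). Without WT LPS replicates 1, 2 and 6, the counts were 26 and 7 for genotype with LPS, 63 and 16 for LPS in WT and 15 and 6 for the interaction. The calls lost for LPS in WT were Nfkbia 18.7 kb downstream (-0.55), the Nfkbie TSS (0.54), Rel 8.0 kb upstream (0.55), Relb 28.4 kb downstream (-0.515) and Relb 10.5 kb upstream (0.32), and the interaction at Rela 15.4 kb upstream (-0.93) was lost too.

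Same-numbered libraries had correlations of their deviations from group means of -0.128 to 0.29, and between unstimulated and LPS libraries 5 of 6 WT pairs but 2 of 6 AhR-KO pairs were over 0.1, with 4 and 3 of 6 closest to their own number, so the numbers were not taken as pairs. A replicate block gave 21 and 13, 22 and 8, 68 and 17, 69 and 15, and 13 and 8, and a replicate block within genotype 13 and 9 for the interaction, and neither changed a named call. The depth of the unstimulated WT libraries, down to 8.54 M, limits peaks under 1 CPM.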
